A study of Aedes aegypti with 33 samples.

Results

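A20 cells, a cultured cell line of the yellow fever mosquito Aedes aegypti, were compared after 72 h in the serum-free medium SF900 II with 10 μM heme added and in the same medium with 0 μM heme. This comparison takes 6 of the 33 libraries of the series, namely the 3 biological replicates of each treatment in A20 cells, and they were chosen by their labels alone. A further group of 3 A20 libraries, from cells kept for 72 h in regular growth media (Leibovitz’s L-15 with fetal bovine serum, FBS), is given beside them and shared the estimate of the spread. Both serum-free groups lacked FBS and had the same basal medium, so heme was the difference the labels give between them, whereas the FBS group differed from both in serum and in basal medium. Poly(A) RNA was sequenced, and the values are read counts per gene. No library carried an added RNA standard that the labels name, so the data give the share of each gene in its library. A fall of a gene therefore cannot be told apart from a rise of the others around it. The number of cells and the RNA per cell are not seen in the counts.

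Heme is an iron-bearing porphyrin that cells hold in cytochromes and other enzymes, and that damages membranes and proteins when it is free in excess. A female mosquito takes up a large amount of it with each blood meal, while her cells can also make it, starting with 5-aminolevulinic acid synthase. The question behind the comparison was which genes change their transcripts with the supply of heme, transporters of heme among them.

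The libraries held 24031424 to 25888986 counted reads in 10 μM heme and 23843591 to 27053044 in 0 μM heme. Depth was therefore similar, but the make-up of the libraries was not. At least 1 read was counted for 14720, 13651 and 13925 genes in 10 μM heme and for 15758, 15784 and 15954 genes in 0 μM heme. The 10 most abundant genes of each library held 14.1%, 17.6% and 15.5% of its counts in 10 μM heme, against 10.6%, 10.1% and 10.0% in 0 μM heme. The 10 most abundant genes thus took up more of each library with heme, and the remaining genes together held a smaller share of it. Replicate 1 in 10 μM heme stood apart from replicates 2 and 3, with root mean square differences in log2 level of 1.02 and 0.99, where replicates 2 and 3 differed by 0.69 and the 0 μM heme replicates by 0.42 to 0.55.

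Because of this shift, every comparison was made under 4 scalings of the libraries. TMM and RLE set the bulk of the genes equal between libraries, upper quartile sets a high quantile equal, and library size alone leaves the counts as shares of each library. By TMM, the scaling factors came to 0.834, 0.685 and 0.715 in 10 μM heme and to 1.20, 1.21 and 1.22 in 0 μM heme. CPM below are counts per 1000000 counts of the TMM-scaled library, so that a gene at the same CPM in both groups held a smaller share of the raw counts in 10 μM heme. Of 19712 genes, 12249 had enough counts to be tested. The median log2 fold change of 10 μM over 0 μM heme was -0.19 under TMM, -0.12 under RLE, -0.10 under upper quartile and -0.88 under library size alone. The whole distribution moved to the left under library size alone, while the other 3 scalings gave nearly the same one. Leaving the 10 most abundant genes out of the library size gave a median of -0.80, so most of this shift remained without them.

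**Figure D1:**
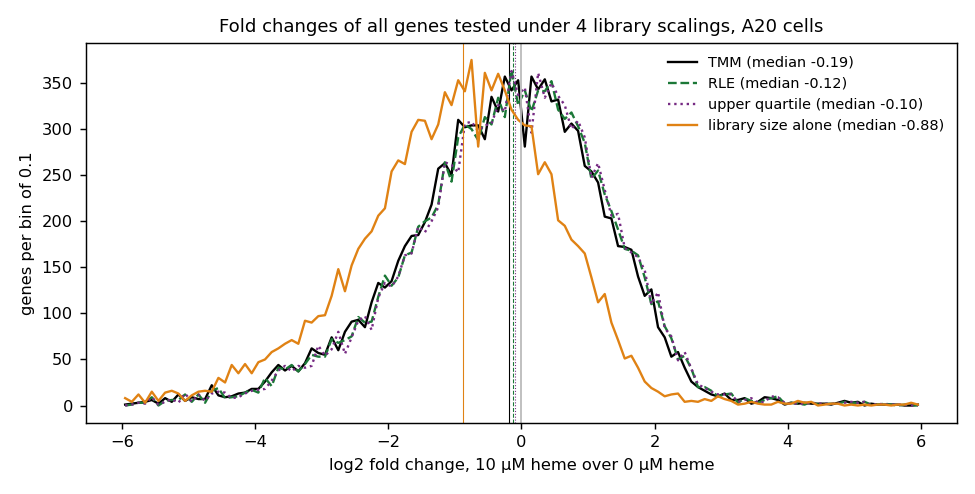
Distribution of the log2 fold change (10 μM over 0 μM heme, x axis) over 12249 genes tested in A20 cells, as genes per bin of 0.1 (y axis), with 1 line per library scaling and a vertical line at each median. The medians lie at -0.19, -0.12 and -0.10 for TMM, RLE and upper quartile and at -0.88 for library size alone.

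Under TMM, 2318 genes differed between the treatments (18.9% of those tested), 1199 of them higher (9.79%) and 1119 lower (9.14%) in 10 μM heme, by edgeR’s quasi-likelihood test at a Benjamini-Hochberg adjusted p below 0.0001, the threshold of the study. RLE gave 1279 higher and 1055 lower, and upper quartile 1396 and 957. Library size alone gave 420 higher and 2124 lower, so that 16.5% of the genes called were higher, against 51.7% under TMM. The direction given to the response as a whole therefore depended on the scaling. No gene called under TMM was called in the other direction under the other 3 scalings. Permuting 3 libraries against 3 exactly gives no two-sided p smaller than 0.1 for 1 gene, so all p-values below come from the fit across genes.

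A set of 420 genes was higher with heme under all 4 scalings (3.43% of the genes tested) and 939 genes were lower (7.67%). These are called the held genes below. All 420 differed by more than 2-fold, 234 by more than 4-fold and 8 by more than 16-fold under TMM, with a median log2 fold change of 2.05 under TMM and 1.34 under library size alone. Of the 939 lower genes, 892 differed by more than 2-fold, 391 by more than 4-fold and 69 by more than 16-fold, with medians of -1.81 and -2.49. The very large changes were thus mostly losses. The higher genes had median levels of 146 and 34.2 CPM in 10 μM and 0 μM heme, and the lower genes 21.6 and 70.6 CPM. The higher genes were thus the more abundant set in 10 μM heme, and the lower genes in 0 μM heme. In all 1359 held genes the libraries of the treatments did not overlap, which was so for 71.1% of all genes tested.

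Raw shares are the measure of library size alone, under which the same 420 genes were called higher. These 420 genes held 44.8%, 52.9% and 50.2% of all counts in 10 μM heme. In 0 μM heme they held 18.3%, 17.2% and 16.6%, and with FBS 23.6% to 24.8%. The 939 lower genes held 3.93%, 2.51% and 2.73% of the counts in 10 μM heme, 16.9% to 18.4% in 0 μM heme, and 12.3% to 13.2% with FBS. These shares describe sets that were picked on the same libraries and are no test of them. Replicate 1 in 10 μM heme lay nearest to the 0 μM heme libraries in 411 of the 420 higher genes and in 727 of the 939 lower genes. Without that library, 755 genes were higher and 2028 lower under all 4 scalings, including 420 and 902 of the same genes. Leaving out any other single library gave 106 to 255 held higher genes and 126 to 539 held lower genes. In the fit of the 6 serum-free libraries by themselves, 147 genes were higher and 36 lower under TMM, so most calls also rested on the FBS libraries that entered the estimate of the spread.

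**Figure D2:**
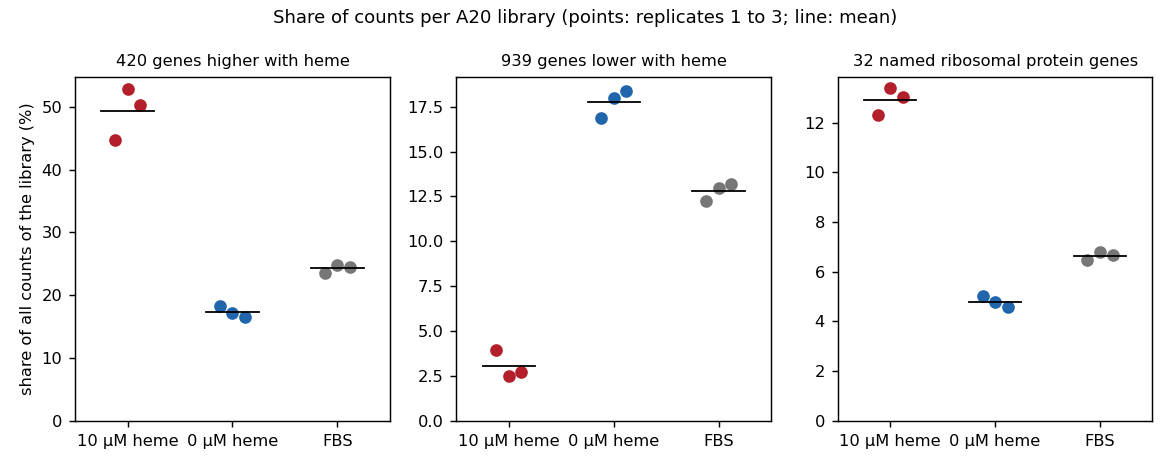
Share of all counts of each A20 library (y axis, percent) held by 420 genes higher with heme under all 4 scalings, by 939 genes lower, and by 32 named ribosomal protein genes, for 10 μM heme, 0 μM heme and FBS. Points are replicates 1 to 3 and lines are means. The 420 genes hold 44.8% to 52.9% with heme and 16.6% to 18.3% without it, and the libraries of the treatments do not overlap in any panel.

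The 12 held genes that rose most carry no annotated product in the sources used here and are given by their identifiers. AAEL019860, which spans 3:135668411-136653404 in AaegL5, had 11853, 43838 and 30143 CPM in 10 μM heme, against 489, 586 and 994 CPM in 0 μM heme and 605, 845 and 980 CPM with FBS. It reached 3.00% of the raw counts of a 10 μM heme library and differed by 41.5-fold (log2 5.37, SE 0.52, adjusted p = 2.22e-05 by edgeR’s quasi-likelihood test), or by 4.62 on the log2 scale under library size alone. AAEL027243 had 9349, 33419 and 23891 CPM in 10 μM heme against 166, 265 and 497 CPM in 0 μM heme (log2 6.17, SE 0.60). AAEL023799 had 5071, 30152 and 18416 CPM in 10 μM heme against 102, 161 and 299 CPM in 0 μM heme (log2 6.58, SE 0.71). In all of these genes replicate 2 was the highest and replicate 1 the lowest of the 10 μM heme libraries, and the lowest of them still lay above every library without heme. AAEL019860 and AAEL027243 kept their calls in 5 of the 9 fits that each left out 1 library, and AAEL023799 in 2.

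The genes among the 12 whose replicates lay closest together were AAEL009825 and AAEL028178. AAEL009825 had 46.1, 45.8 and 50.5 CPM in 10 μM heme, against 5.72, 5.25 and 4.71 CPM in 0 μM heme and 7.71, 8.42 and 8.88 CPM with FBS (9.08-fold, log2 3.18, SE 0.13, edgeR adjusted p = 1.86e-06). AAEL028178 had 787, 1308 and 1214 CPM in 10 μM heme, against 118, 116 and 111 CPM in 0 μM heme and 178, 196 and 195 CPM with FBS (9.61-fold, log2 3.26, SE 0.18). Neither gene overlapped between treatments, and both kept their calls in all 9 fits that left out 1 library. AAEL026302, AAEL009506 and AAEL021693 had log2 fold changes of 5.09, 3.53 and 3.29, and AAEL021693 spans 2:30202574-30663575.

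The remaining 4 of the 12 were close to absent without heme. AAEL028952, AAEL028813, AAEL028798 and AAEL024417 are all the genes with less than 1 CPM in every 0 μM heme library and at least 10 CPM in every 10 μM heme library, a limit chosen after the values were seen. AAEL028952 had 32.2, 21.0 and 68.7 CPM in 10 μM heme, against 0.277, 0.278 and 0.608 CPM in 0 μM heme and 0.0640, 0.786 and 0.328 CPM with FBS (log2 6.67, SE 0.70). AAEL028813 had 43.2, 52.2 and 78.0 CPM in 10 μM heme and 0.624, 0.382 and 0.820 CPM in 0 μM heme (log2 6.54, SE 0.50). AAEL024417 had 19.5, 39.5 and 36.8 CPM in 10 μM heme and 0.659, 0.522 and 0.881 CPM in 0 μM heme (log2 5.52, SE 0.35). AAEL024417 kept its call in 9 of 9 fits without 1 library, AAEL028813 in 7, and AAEL028952 and AAEL028798 in 4. Of these 4 genes, 3 were also below 1 CPM in every FBS library, the exception being AAEL024417.

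The converse change was larger. AAEL015458, one of the genes for which the study lists RT-qPCR primers, had 1.93, 0.547 and 1.08 CPM in 10 μM heme, against 1024, 784 and 806 CPM in 0 μM heme and 0.384, 1.27 and 1.75 CPM with FBS. In raw counts this was 70 reads over the 3 libraries with heme and 78601 over the 3 without it. The gene was 712-fold lower in 10 μM heme under TMM (log2 -9.48, SE 0.56, edgeR adjusted p = 2.19e-06) and 1133-fold lower under library size alone, and the call held in all 9 fits that left out 1 library. The levels with heme and with FBS overlapped, whereas those in 0 μM heme lay far above both. The RT-qPCR primers of the study for this gene are shown because it carries the largest change in either direction, with the gene-specific bases in capitals, 5′ to 3′:
AAEL015458 RT-qPCR forward: ATGATGGAGCGATCCGATGT
AAEL015458 RT-qPCR reverse: TACGCGCATTTGGATTCAGG

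The other 11 of the 12 largest falls also carry no annotated product in the sources used here. Whether any of them belongs to a gene list below could not be told. AAEL001794 had 1.60, 0.547 and 0.432 CPM in 10 μM heme, against 77.5, 117 and 117 CPM in 0 μM heme and 0.704, 1.05 and 1.02 CPM with FBS (116-fold lower, log2 -6.85, SE 0.41). AAEL003156 had 1.04, 0.851 and 0.486 CPM in 10 μM heme and 95.8, 50.6 and 60.2 CPM in 0 μM heme (log2 -6.42, SE 0.42), and AAEL002595 had 1.46, 0.486 and 0.216 CPM in 10 μM heme and 40.7, 46.2 and 48.8 CPM in 0 μM heme (log2 -5.91, SE 0.46). These genes did not overlap between the treatments and kept their calls in all 9 fits without 1 library. AAEL001098 was the most abundant of the others, with 17.1, 5.53 and 4.48 CPM in 10 μM heme and 346, 471 and 471 CPM in 0 μM heme (log2 -5.56, SE 0.57). The log2 fold changes of AAEL014382, AAEL027792, AAEL004522, AAEL011470, AAEL010270, AAEL025975 and AAEL019868 ran from -7.98 to -6.13, and the calls of AAEL025975 and AAEL019868 held in 1 of the 9 fits without 1 library.

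In all, 8 genes had less than 1 CPM in every 10 μM heme library and at least 10 CPM in every 0 μM heme library, and 6 of them were also below 1 CPM in every FBS library. AAEL004522, one of these, had 0.424, 0 and 0.216 CPM in 10 μM heme, against 16.0, 29.1 and 27.0 CPM in 0 μM heme and 0 CPM in each FBS library. The others were AAEL001077, AAEL002690, AAEL014382, AAEL001803, AAEL019868, AAEL020192 and AAEL027792, named after their values were seen.

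**Figure D3:**
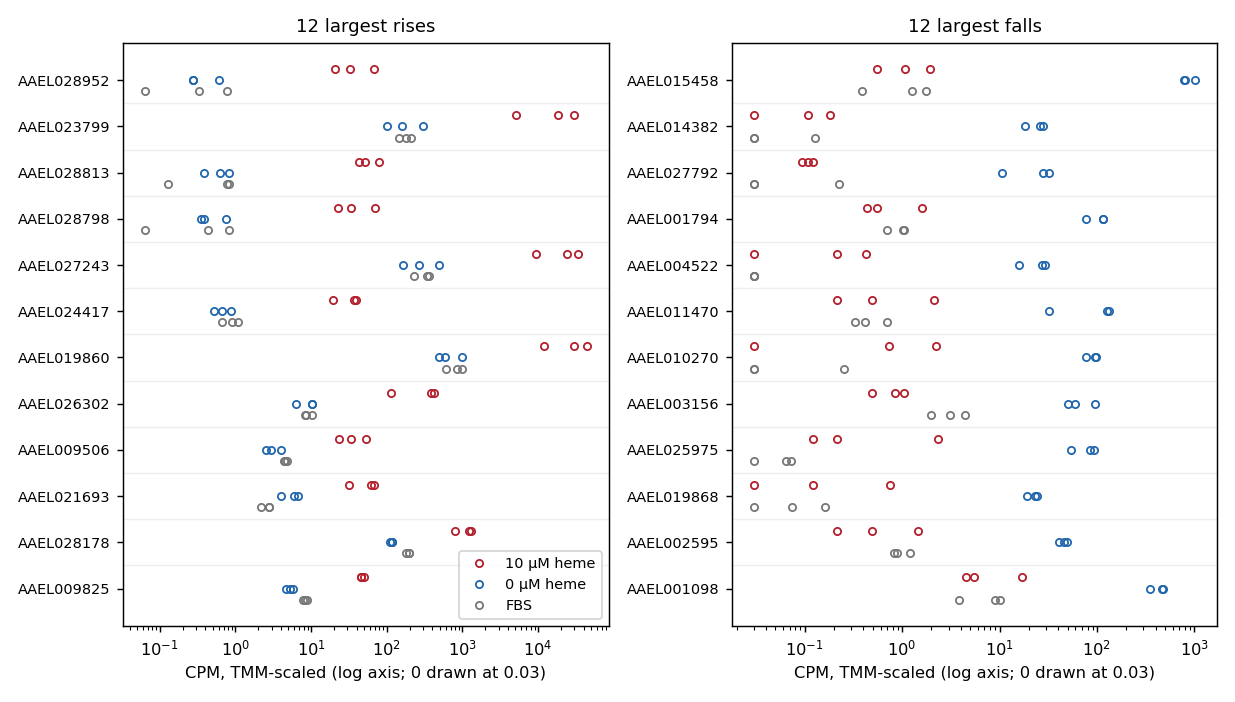
CPM (TMM-scaled, log axis, 0 drawn at 0.03) of the 12 largest rises and the 12 largest falls among genes held under all 4 scalings, with 1 point per library for 10 μM heme, 0 μM heme and FBS. The treatments do not overlap in any of these genes, and AAEL015458 lies below 2 CPM in every library with heme and with FBS and between 784 and 1024 CPM without heme.

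With regular growth media beside the treatments, the FBS mean lay closer to 10 μM heme than to 0 μM heme in 25 of the 420 higher genes (5.95%) and in 176 of the 939 lower genes (18.7%), against 34.0% of all genes tested. It lay above both treatments in 300 of the 939 lower genes and below both in 62 of them. For most of the higher genes, cells in regular growth media were thus nearer to the cells without heme. Serum and basal medium differ from both treatments in these libraries, and their parts cannot be told apart.

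Products could be named for 791 of the 19712 identifiers, which include 80 of the 420 higher and 60 of the 939 lower genes, so each list of genes below holds only the part of its group that could be named. Over the 25 lists, 90 members were called higher and 17 lower under TMM, and 52 higher and 46 lower under library size alone. Each count below stands beside all genes tested, of which 9.79% were higher and 9.14% lower under TMM. The shares were 3.43% and 17.3% under library size alone, and 3.43% and 7.67% under all 4 scalings.

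The cytosolic ribosome, the machine that makes protein from mRNA, gave the most uniform change. All 32 named ribosomal protein genes were higher in 10 μM heme under TMM, against 9.79% of all genes tested, and 31 of them were higher under all 4 scalings, against 3.43%. Their fold changes ran from 2.75 to 8.41 with a median of 4.46 under TMM and 2.72 under library size alone, on the log2 scale a median of 2.16 and 1.44 beside -0.19 and -0.88 for all genes. Together they held 12.3%, 13.4% and 13.0% of all counts in 10 μM heme, 5.04%, 4.79% and 4.56% in 0 μM heme and 6.45%, 6.79% and 6.68% with FBS. The treatments did not overlap in any of the 32 genes, which was so for 71.1% of all genes tested. The FBS mean lay between the treatments in all 32, and replicate 1 was the lowest of the 10 μM heme libraries in 30 of them.

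RpS2 (AAEL010168, 3:149352734-149354357), of the small subunit, was the most abundant, with 13811, 22432 and 21903 CPM in 10 μM heme and 3027, 2929 and 2729 CPM in 0 μM heme (6.69-fold, log2 2.74, SE 0.18, edgeR adjusted p = 3.72e-06). RpLP1 (AAEL005027, 2:443915240-443915787), an acidic protein of the large-subunit stalk, changed most, with 283, 409 and 395 CPM in 10 μM heme, against 45.6, 40.5 and 43.1 CPM in 0 μM heme and 67.5, 73.5 and 68.3 CPM with FBS (8.41-fold, log2 3.07, SE 0.15). Ribosomal protein L19 (AAEL024536) changed least, with 5263, 5683 and 5403 CPM in 10 μM heme and 2138, 1982 and 1830 CPM in 0 μM heme (2.75-fold, log2 1.46). The smallest change of a named ribosomal gene was thus several times its SE of 0.09. RpL24 (AAEL012681) was the member not called under library size alone, where its log2 fold change was 0.81 beside 1.50 under TMM. Between 31 and 32 members kept the call when any 1 library was left out, and 22 did in the fit of the 6 serum-free libraries.

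The rest of protein synthesis moved less and depended more on the scaling. Of 21 translation factors, 11 were higher under TMM and 3 under all 4 scalings, with median log2 fold changes of 0.98 under TMM and 0.27 under library size alone. Translation initiation factor AAEL003661 had 271, 287 and 300 CPM in 10 μM heme and 89.3, 89.3 and 86.9 CPM in 0 μM heme (3.23-fold, log2 1.69, SE 0.08). Elongation factor 1-alpha (AAEL017096), which brings aminoacyl-tRNA to the ribosome, was on average the most abundant gene with heme. In replicate 2 in 10 μM heme AAEL019860 was higher, at 43838 CPM. The elongation factor had 49374, 40850 and 42101 CPM in 10 μM heme and 21450, 17927 and 17448 CPM in 0 μM heme. Its log2 fold change was 1.22 by TMM and 0.53 by library size alone, where it was not called (edgeR adjusted p = 7.77e-03). Under library size alone 3 translation factors were higher and 2 lower, and 5 to 11 were higher under TMM when 1 library was left out.

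Of 14 named genes for ribosome biogenesis and RNA helicases, 4 were higher under TMM, against 9.79% of all genes tested, and 3 under all 4 scalings, against 3.43%. The list’s median log2 fold change was 0.64 by TMM and -0.06 by library size alone, and 2 to 6 members were called higher when 1 library was left out, with 6 without replicate 1 in 10 μM heme. U3 small nucleolar ribonucleoprotein AAEL004997, which takes part in processing of ribosomal RNA, had 102, 112 and 112 CPM in 10 μM heme and 35.1, 33.0 and 30.2 CPM in 0 μM heme (log2 1.73, SE 0.10). A DEAD box RNA helicase (AAEL013359) had 5859, 6212 and 6072 CPM in 10 μM heme and 2462, 2385 and 2380 CPM in 0 μM heme (log2 1.33, SE 0.08). These were among the changes with the tightest replicates. Of 15 tRNA synthetases, 3 were higher under TMM and 0 under library size alone, where the median was -0.01 beside 0.68 by TMM, and 0 to 5 were higher under TMM when 1 library was left out. At an unadjusted p below 0.05, 11 of them were higher in edgeR’s quasi-likelihood test under TMM, and the exact test called 7 and DESeq2 8. The phenylalanyl-tRNA synthetase alpha chain (AAEL002867, log2 1.14), one of the 3, kept its call in 2 of the 9 fits without 1 library.

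**Figure D4:**
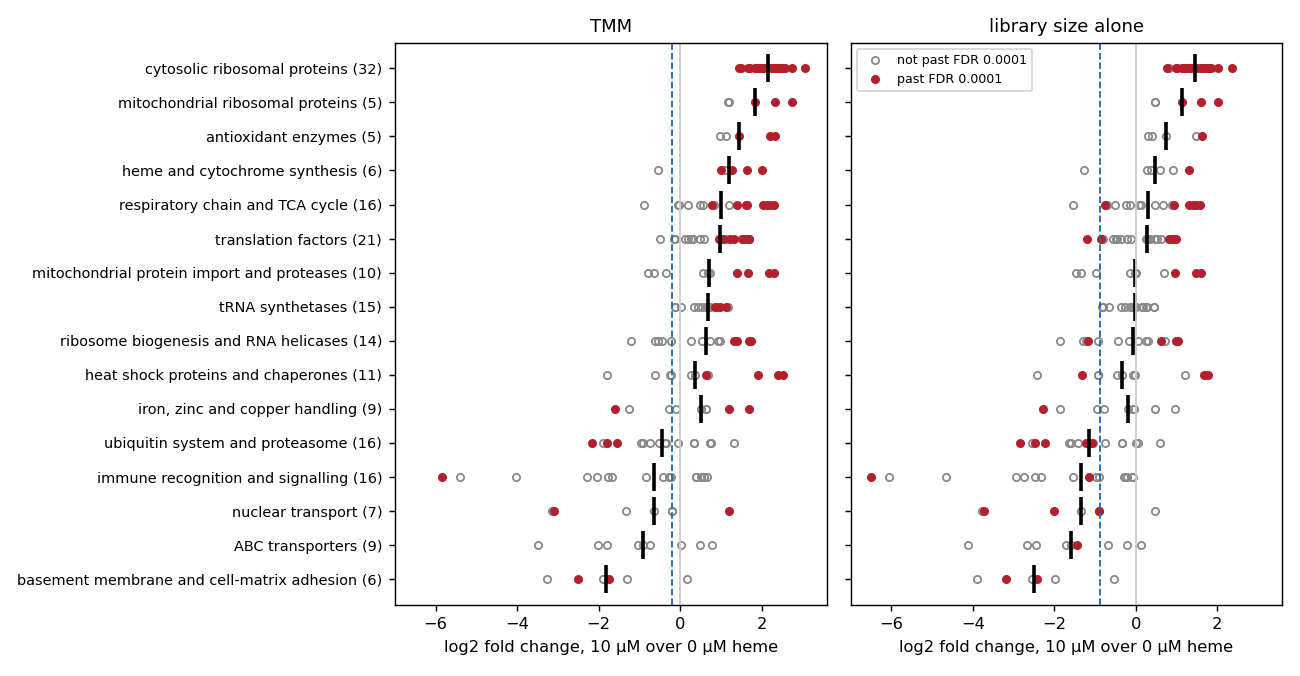
Log2 fold change (10 μM over 0 μM heme, x axis) of every tested member of 16 gene lists under TMM and under library size alone, with the number of members in parentheses. Filled points are past an adjusted p of 0.0001, black ticks are list medians and the dashed line is the median of all genes tested, at -0.19 (TMM) and -0.88 (library size alone). The 32 cytosolic ribosomal protein genes lie above 0 under both.

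Mitochondrial genes moved in the same direction in part. Of 16 genes for the respiratory chain and the TCA cycle, which oxidize fuel and make ATP, 8 were higher under TMM and 5 under all 4 scalings, with medians of 1.01 by TMM and 0.30 by library size alone. The F0 ATP synthase D chain (AAEL004423) had 676, 1199 and 1175 CPM in 10 μM heme and 222, 221 and 218 CPM in 0 μM heme (4.61-fold, log2 2.21, SE 0.20). A NADH dehydrogenase subunit (AAEL007054) had 150, 281 and 257 CPM in 10 μM heme and 47.1, 43.9 and 49.0 CPM in 0 μM heme (log2 2.30, SE 0.21). The 5 held members were all parts of the respiratory chain or ATP synthase, whereas among the TCA cycle enzymes 2-oxoglutarate dehydrogenase (AAEL006721) had a log2 fold change of -0.88, aconitase (AAEL012897) -0.06 and citrate synthase (AAEL011789) 0.20, and none of these passed the threshold in edgeR’s quasi-likelihood test under TMM. 2-oxoglutarate dehydrogenase was called lower by the exact test, and aconitase was called lower under library size alone (log2 -0.77). The number called higher ran from 0 to 11 when 1 library was left out, with 11 without replicate 1 in 10 μM heme.

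Of 5 mitochondrial ribosomal protein genes, 3 were higher under all 4 scalings, and mRpL42 (AAEL005190) had 97.1, 182 and 169 CPM in 10 μM heme and 21.7, 22.1 and 22.6 CPM in 0 μM heme (log2 2.75, SE 0.23). Of 10 genes for mitochondrial import and proteases, 4 were higher under TMM and 3 under all 4 scalings. An inner membrane translocase subunit (AAEL000941), which passes proteins into mitochondria, had 136, 185 and 191 CPM in 10 μM heme and 39.7, 31.7 and 31.5 CPM in 0 μM heme (log2 2.31, SE 0.16). Prohibitin (AAEL013952), of the inner membrane, had a log2 fold change of 1.68 (SE 0.15). Replicate 1 was the lowest of the 10 μM heme libraries in each of these genes, and the treatments still did not overlap. When 1 library was left out, 0 to 5 mitochondrial ribosomal genes and 1 to 4 import genes were called.

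Among the genes that make heme and cytochromes, 5-aminolevulinic acid synthase (AAEL007787, 3:133488369-133516968), the first enzyme of heme synthesis, had 15.8, 24.9 and 22.4 CPM in 10 μM heme, against 23.9, 35.7 and 32.4 CPM in 0 μM heme and 12.2, 34.1 and 31.2 CPM with FBS. The treatments overlapped and the difference did not pass the test under TMM (log2 -0.55, SE 0.35, edgeR adjusted p = 0.190) or under library size alone (log2 -1.27, adjusted p = 7.91e-03). Porphobilinogen synthase (AAEL002304), the next enzyme, had 69.2, 86.2 and 80.5 CPM in 10 μM heme and 41.5, 38.3 and 38.4 CPM in 0 μM heme, with log2 fold changes of 1.00 under TMM, where it was called, and 0.29 under library size alone, where it was not. Coproporphyrinogen III oxidase (AAEL013389), a later enzyme, had a log2 fold change of 1.10 that did not pass in the quasi-likelihood test (SE 0.17, adjusted p = 3.02e-04) but did in edgeR’s exact test (adjusted p = 1.06e-07).

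Cytochrome c and genes that attach heme to cytochromes or make the heme of cytochrome oxidase were higher under TMM. Cytochrome c1 heme lyase (AAEL014630, 1:242146044-242158230), which attaches heme to the protein, had 88.3, 131 and 120 CPM in 10 μM heme, against 31.5, 26.8 and 25.6 CPM in 0 μM heme and 57.2, 55.5 and 53.8 CPM with FBS, and was higher under all 4 scalings (4.04-fold, log2 2.01, SE 0.16, edgeR adjusted p = 8.24e-06). Protoheme IX farnesyltransferase (AAEL001479), which makes the heme of cytochrome oxidase, had 206, 210 and 219 CPM in 10 μM heme and 95.6, 82.0 and 83.1 CPM in 0 μM heme (log2 1.28, SE 0.09). Cytochrome c (AAEL004457) had 431, 712 and 722 CPM in 10 μM heme and 192, 201 and 201 CPM in 0 μM heme (log2 1.65, SE 0.18). These last genes were called under TMM and not under library size alone, at log2 0.58 and 0.93. The call of cytochrome c held in 1 of the 9 fits that left out 1 library, and that of the heme lyase in 7. Of the 6 members, 4 were higher under TMM and 1 under all 4 scalings, with a median log2 fold change of 1.19 under TMM and 0.48 under library size alone, and 0 to 5 were called when 1 library was left out, with 0 without replicate 3 in 0 μM heme.

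Transferrin (AAEL011641, 3:281619118-281626580), a secreted iron-binding protein, had 6.41, 6.44 and 4.97 CPM in 10 μM heme, against 19.7, 17.9 and 16.2 CPM in 0 μM heme and 5.37, 3.82 and 4.69 CPM with FBS. It was 3.02-fold lower with heme under TMM (log2 -1.59, SE 0.18, edgeR adjusted p = 5.28e-05) and 4.88-fold lower under library size alone, and lower under all 4 scalings. Its level with heme was near that in regular growth media. The call held in 1 of the 9 fits that left out 1 library, with a log2 fold change of -1.66 to -1.48 over them. A ZIP family zinc transporter (AAEL014762), a member of a family that carries zinc and iron across membranes, had 156, 38.5 and 32.3 CPM in 10 μM heme, against 167, 192 and 181 CPM in 0 μM heme and 48.5, 46.3 and 46.7 CPM with FBS. Replicate 1 in 10 μM heme lay close to the libraries without heme and the other replicates close to the FBS libraries, and the difference did not pass the test (log2 -1.25, SE 0.50, adjusted p = 0.0492). Of the 9 genes for iron, zinc and copper, 2 were higher under TMM, ferredoxin (AAEL006428, log2 1.68), an iron-sulfur protein, and sideroflexin (AAEL014526, log2 1.19), a mitochondrial membrane transporter, and neither was called under library size alone.

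Enzymes against oxidants and chaperones rose in part. Of 5 named antioxidant genes 3 were higher under TMM and 1 under all 4 scalings, with a median log2 fold change of 1.45 under TMM and 0.74 under library size alone. Thioredoxin peroxidase TPX4 (AAEL002309), which reduces peroxides, had 418, 558 and 537 CPM in 10 μM heme, against 94.6, 104 and 103 CPM in 0 μM heme and 246, 156 and 157 CPM with FBS (5.03-fold, log2 2.33, SE 0.19, edgeR adjusted p = 1.12e-05). Cu-Zn superoxide dismutase (AAEL019937), which removes superoxide, had 330, 673 and 667 CPM in 10 μM heme and 122, 125 and 116 CPM in 0 μM heme (log2 2.20, SE 0.24). Sulfiredoxin (AAEL003599), which restores oxidized peroxiredoxins, had a log2 fold change of 1.45. No treatment overlap was seen in these genes, and 0 to 4 of the 5 were called when 1 library was left out.

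Of 11 heat shock proteins and chaperones, 4 were higher under TMM and 2 under all 4 scalings. Heat shock protein AAEL001052 had 563, 1113 and 1231 CPM in 10 μM heme, against 176, 164 and 168 CPM in 0 μM heme and 335, 285 and 282 CPM with FBS (log2 2.52, SE 0.25). Heat shock protein AAEL000301 had 106, 174 and 196 CPM in 10 μM heme and 30.7, 29.8 and 29.8 CPM in 0 μM heme (log2 2.40, SE 0.21). The list’s median was 0.36 by TMM and -0.34 by library size alone, and 0 to 4 members were called when 1 library was left out, so the rise was carried by a few members. Of 16 genes of the secretory pathway of the endoplasmic reticulum, 3 were higher and 1 lower under TMM, beside 9.79% and 9.14% of all genes tested. Under library size alone 0 were higher and 1 lower, and 0 to 7 were higher under TMM when 1 library was left out, with 7 without replicate 1 in 10 μM heme. Their median log2 fold change was 0.70 by TMM and -0.002 by library size alone, beside -0.19 and -0.88 for all genes tested. At an unadjusted p below 0.05, 13 were higher and 2 lower in edgeR’s quasi-likelihood test under TMM. The exact test called 8 higher and 1 lower, and DESeq2 9 higher and 1 lower. Of 7 cytochrome P450 genes, which encode heme-bearing oxidases, edgeR’s quasi-likelihood test called 0, while 2 were higher and 1 lower at an unadjusted p below 0.05 and edgeR’s exact test and DESeq2 each called 1 higher and 1 lower. Their median log2 fold change was 0.10.

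Among the gene lists other than the cell type markers, that for the basement membrane and cell-matrix adhesion had the lowest median log2 fold change, -1.81 over 6 tested members under TMM and -2.49 under library size alone. Laminin chains, the large proteins of the basement membrane, were lower under all 4 scalings, against 7.67% of all genes. The laminin beta-2 chain (AAEL003658, 3:65346007-65405296) had 76.1, 62.1 and 59.3 CPM in 10 μM heme, against 348, 392 and 386 CPM in 0 μM heme and 228, 238 and 231 CPM with FBS (5.70-fold lower, log2 -2.51, SE 0.12, edgeR adjusted p = 1.86e-06). The laminin gamma 1 chain (AAEL005187) had 188, 160 and 158 CPM in 10 μM heme, against 553, 560 and 571 CPM in 0 μM heme and 570, 557 and 566 CPM with FBS (log2 -1.74, SE 0.10). These were again changes with close replicates, and the laminin gamma 1 chain stood at the same level without heme as in regular growth media. Glypican (AAEL000433), a cell-surface proteoglycan, had a log2 fold change of -3.26 and integrin alpha-ps (AAEL011038) of -1.89, and neither passed the threshold in the quasi-likelihood test (adjusted p = 3.03e-04 and 1.24e-04). Both did in edgeR’s exact test, and the exact test and DESeq2 each called 5 of the 6 members lower. Between 2 and 5 members were called lower when 1 library was left out.

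Single members of other lists fell strongly. The vacuolar sorting protein AAEL005861, of the route to lysosomes, had 379, 353 and 360 CPM in 10 μM heme, against 1659, 1910 and 1979 CPM in 0 μM heme and 1327, 1520 and 1509 CPM with FBS (5.08-fold lower, log2 -2.35, SE 0.11), in a list of 13 genes with a median of 0.03 under TMM. Importin beta-1 (AAEL013275), which carries proteins into the nucleus, had 24.1, 9.00 and 8.59 CPM in 10 μM heme, against 112, 123 and 121 CPM in 0 μM heme and 141, 155 and 162 CPM with FBS (8.51-fold lower, log2 -3.09, SE 0.36). Both were lower under all 4 scalings, AAEL005861 also in 9 of the 9 fits without 1 library and importin beta-1 in 1. Of the 7 nuclear transport genes, 1 was higher and 1 lower under TMM and 4 were lower under library size alone. Of all genes tested, these shares were 9.79%, 9.14% and 17.3%.

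In the ubiquitin system, which marks proteins for breakdown, 3 of 16 genes were lower under all 4 scalings, against 7.67% of all genes tested. The ubiquitin-conjugating enzyme AAEL013633 had 4.57, 5.47 and 3.51 CPM in 10 μM heme and 20.2, 19.0 and 21.0 CPM in 0 μM heme (log2 -2.15, SE 0.19), the F-box protein AAEL004875 had a log2 fold change of -1.80, and the ubiquitin-conjugating enzyme E2-230k (AAEL006073) of -1.56. The list’s median was -0.44 by TMM and -1.14 by library size alone, and 0 to 7 members were lower when 1 library was left out. A dynein heavy chain (AAEL007132), a motor protein of microtubules, had 162, 117 and 156 CPM in 10 μM heme and 418, 423 and 425 CPM in 0 μM heme (log2 -1.54, SE 0.13) and was lower under all 4 scalings, as was septin (AAEL004668, log2 -1.07). The cytoskeleton list of 16 genes had a median of 0.19 under TMM and -0.53 under library size alone.

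Of 16 immune genes, 1 was lower under TMM. LRIM1 (AAEL012086), a leucine-rich immune protein, had 0.236, 0 and 0.0540 CPM in 10 μM heme, against 5.86, 6.50 and 6.59 CPM in 0 μM heme and 0.160, 0.187 and 0.509 CPM with FBS (log2 -5.85, SE 0.66, edgeR adjusted p = 5.20e-05). Of 14 splicing factors and RNA-binding proteins, 5 were higher and 2 lower under TMM and 5 were lower under library size alone, and heterogeneous nuclear ribonucleoprotein R (AAEL002879) was the member lower under all 4 scalings. It had 321, 280 and 290 CPM in 10 μM heme and 724, 690 and 707 CPM in 0 μM heme (log2 -1.25, SE 0.09). Of 18 genes for DNA replication and repair, 1 was higher and 2 lower under TMM and 7 lower under library size alone, and of 7 genes for cyclins, their kinases and the anaphase-promoting complex, 1 was higher under TMM. Beside these counts, 9.79% of all genes tested were higher and 9.14% lower under TMM, and 17.3% were lower under library size alone. These lists had medians of -0.63, 0.32, -0.03 and 0.25 under TMM.

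Transporters were of interest to the study as candidates for the movement of heme. Over 9 ABC transporters, edgeR’s quasi-likelihood test called 0 under TMM, while 2 were higher and 6 lower at an unadjusted p below 0.05, and the exact test called 3 lower and DESeq2 1 higher and 3 lower. Their median log2 fold change was -0.92 by TMM and -1.59 by library size alone. Over 11 amino acid transporters the quasi-likelihood test called 0, with 3 higher and 3 lower at an unadjusted p below 0.05 and 1 lower by the exact test and by DESeq2. Of 13 sugar and monocarboxylate transporters, 1 was higher and 1 lower under TMM, beside 9.79% and 9.14% of all genes tested. The sugar transporter AAEL006432 had 4.29, 2.37 and 1.89 CPM in 10 μM heme, against 22.5, 45.1 and 45.4 CPM in 0 μM heme and 9.53, 10.1 and 12.5 CPM with FBS (13.1-fold lower, log2 -3.71, SE 0.37), was lower under all 4 scalings and kept its call in 5 of the 9 fits without 1 library. The monocarboxylate transporter AAEL008342 had 11.7, 13.2 and 13.7 CPM in 10 μM heme and 3.78, 5.25 and 4.74 CPM in 0 μM heme (log2 1.48, SE 0.18), and was called under TMM but not under library size alone.

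The study knocked down 9 genes by RNA interference in cultured cells. Of these, 1 was lower with heme under TMM (9.14% of all genes were) and 5 under library size alone (17.3%). The gene called under TMM, AAEL001495 (2:262109347-262142939), had 8.95, 4.25 and 5.57 CPM in 10 μM heme, against 43.3, 51.0 and 50.1 CPM in 0 μM heme and 5.15, 6.92 and 5.57 CPM with FBS. It was 7.65-fold lower with heme under TMM (log2 -2.93, SE 0.25, edgeR adjusted p = 1.33e-05), lower under all 4 scalings, and at about the same level with heme as in regular growth media, and the call held in 6 of the 9 fits without 1 library. AAEL000461 had 29.8, 16.1 and 18.4 CPM in 10 μM heme, against 72.4, 81.3 and 63.4 CPM in 0 μM heme and 55.9, 49.9 and 39.9 CPM with FBS (log2 -1.75, SE 0.23, adjusted p = 1.36e-04). The monocarboxylate transporter AAEL000417 had 17.1, 12.6 and 11.3 CPM in 10 μM heme, against 30.2, 31.6 and 31.5 CPM in 0 μM heme and 22.6, 21.9 and 24.1 CPM with FBS (log2 -1.18, SE 0.15, adjusted p = 1.15e-04). In AAEL000461 and AAEL000417 the treatments did not overlap, but the difference stayed short of the threshold under TMM and passed it under library size alone (log2 -2.42 and -1.86). The sodium-bile acid cotransporter AAEL012440 had 17.9, 22.1 and 19.7 CPM in 10 μM heme and 26.7, 27.5 and 28.5 CPM in 0 μM heme, with a log2 fold change of -0.47 (SE 0.12, adjusted p = 7.63e-03) under TMM and -1.18 under library size alone, where it was called. AAEL012226 had 22.9, 24.2 and 21.5 CPM in 10 μM heme, against 33.1, 37.1 and 34.9 CPM in 0 μM heme, and was likewise called under library size alone but not under TMM (log2 -1.32 and -0.62). The remaining 4 genes were called under neither scaling. The cationic amino acid transporter AAEL002557 had a log2 fold change of -0.78 under TMM (SE 0.15, adjusted p = 1.22e-03), the amino acid transporter AAEL003619 of -0.38 (SE 0.36), AAEL008664 of -0.06 (SE 0.17) and the neurotransmitter gated ion channel AAEL004513 of 0.32 (SE 0.17). AAEL008664 had 85.7, 55.3 and 57.2 CPM in 10 μM heme, against 78.5, 67.6 and 60.2 CPM in 0 μM heme, so its treatments overlapped. In edgeR’s exact test AAEL001495, AAEL000461, AAEL000417, AAEL012226 and AAEL002557 were called lower. These genes were chosen by the study on its cell and midgut data, these libraries included, so their direction is no separate evidence.

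Primers from which the study made double-stranded RNA are shown for the 3 of these genes with the lowest log2 fold changes, because each pair bounds a stretch of transcript that was targeted. For AAEL001495 the study designed a second pair at another region, which is given too. They run 5′ to 3′ without the T7 promoter tail, with the gene-specific bases in capitals:
AAEL001495 dsRNA forward: CGAAAACGGTGGCGGACTTG
AAEL001495 dsRNA reverse: GTGGGGACGGAAATGAGACAGC
AAEL001495 other dsRNA forward: GAAACAGGCCAACAACAAATCCAG
AAEL001495 other dsRNA reverse: ACGCCCTCACCCAGACCCCACTT
AAEL000461 dsRNA forward: GAAGCCGCGTACCGATTGATGT
AAEL000461 dsRNA reverse: TCGGAGGGAAAGATTTGTTGTAGC
AAEL000417 dsRNA forward: TTAACGGCCGATCTACAGGACGAG
AAEL000417 dsRNA reverse: AACGACGGCAGGCAGATAGATGAA

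Markers of differentiated cell types were looked at because the sources used here name no marker of A20 cells themselves. The few markers that had enough counts to be tested, of hemocytes (5 genes), muscle (1 gene), neurons (4 of 5 named genes) and midgut (3 genes), had reads in every library of both treatments, some of them under 1 CPM. The neuron list, in which synaptosomal associated protein (AAEL004559, log2 -1.42) and fasciclin II (AAEL009173, log2 -1.73) were called lower under TMM, summed to 115 to 176 CPM in 10 μM heme, against 370 to 383 CPM in 0 μM heme and 331 to 349 CPM with FBS. Each of these calls held in 1 of the 9 fits without 1 library, and the fit of the 6 serum-free libraries called 0 members. Under all 4 scalings 1 member was lower, and the highest log2 fold change in the list was 0.59 under TMM. The hemocyte list summed to 99.4 to 114 CPM with heme and 82.6 to 91.5 CPM without it, most of it hemomucin (AAEL004868), at 86.6 to 101 CPM with heme and 70.9 to 79.4 CPM without it. The median log2 fold change of the list was -1.67, and 2 members were higher and 3 lower at an unadjusted p below 0.05. The midgut list summed to at most 19.8 CPM with heme and 15.5 CPM without it, with trypsin AAEL009853 at 15.2 CPM on average with heme and 5.77 CPM without it (log2 1.40), while the list’s median was -2.15 and 1 member was higher and 2 lower at an unadjusted p below 0.05. In both lists edgeR’s quasi-likelihood test called 0 members under TMM, and the exact test called 1 hemocyte and 2 midgut members lower. Muscle had paramyosin alone (AAEL000485), at 99.9 to 109 CPM with heme and 135 to 143 CPM without it. The part of these levels in the other results was not tested.

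The response was set against that of Aag2, another Ae. aegypti line, to which the same 10 μM and 0 μM heme were given for 72 h in serum-free L-15 or Schneider’s medium. In joint fits of 18 libraries, the log2 fold change with heme differed between A20 and Aag2 cells in 3864 of 14594 genes with L-15 (26.5%) and in 3929 of 14004 genes with Schneider’s medium (28.1%), by edgeR’s quasi-likelihood test of the interaction. Cell line and basal medium differed together and cannot be told apart. All 32 ribosomal protein genes had a higher response in A20 cells in both joint fits, under TMM and under library size alone, with differences of 1.91 to 3.41 on the log2 scale against Aag2 in L-15 and of 1.73 to 3.59 against Aag2 in Schneider’s medium under TMM. In Aag2 cells their log2 fold changes ran from -0.59 to 0.36 in L-15 and from -0.55 to -0.03 in Schneider’s medium. RpS2 (AAEL010168) had a log2 fold change of -0.31 in L-15 and -0.26 in Schneider’s medium in Aag2 cells, where it was 2.74 in A20 cells.

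**Figure D5:**
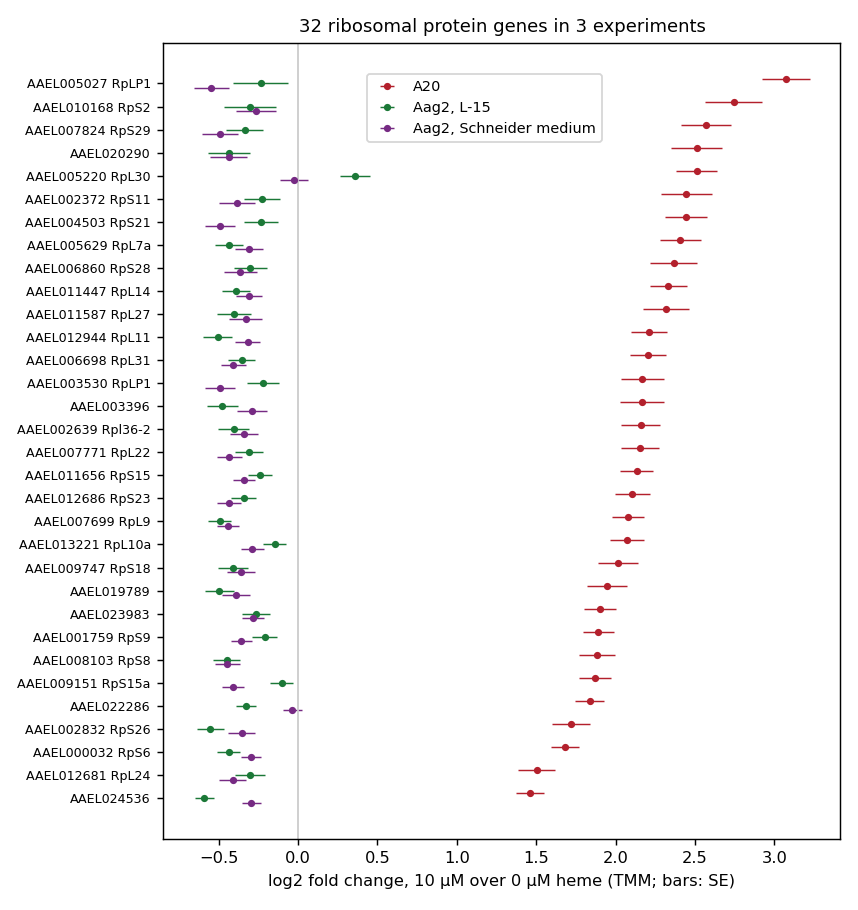
Log2 fold change (10 μM over 0 μM heme, TMM, x axis; bars are SE) of each of 32 named ribosomal protein genes (y axis) in A20 cells and in Aag2 cells in L-15 and in Schneider’s medium. The A20 values lie between 1.46 and 3.07, and the Aag2 values between -0.59 and 0.36.

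Other groups differed between the lines in part. The interaction was called for 14 of 21 translation factors and 11 of 16 genes of the respiratory chain and TCA cycle in both joint fits, with the higher response in A20 cells under TMM. Of all genes tested, 2182 of 14594 had the higher response in A20 cells with L-15 and 1824 of 14004 with Schneider’s medium. Under library size alone the response of translation factors was higher in A20 cells for 6 and lower for 2 against Aag2 in L-15, and higher for 8 and lower for 1 against Aag2 in Schneider’s medium. For the respiratory chain and TCA cycle these counts were 6 and 3 in L-15 and 7 and 2 in Schneider’s medium. For all genes tested they were 729 and 4166 of 14594 in L-15 and 681 and 4140 of 14004 in Schneider’s medium. Cytochrome c1 heme lyase (AAEL014630) differed by 2.00 against Aag2 in L-15 and by 2.40 against Aag2 in Schneider’s medium on the log2 scale, and it had log2 fold changes of 0.11 and -0.41 in Aag2 cells. For transferrin (AAEL011641) the differences were -1.29 and -2.13, beside -0.20 and 0.51 in Aag2 cells, and for the laminin beta-2 chain (AAEL003658) they were -2.22 and -1.81, beside -0.19 and -0.73. The last of these shows that the laminin beta-2 chain was also lower with heme in Aag2 cells in Schneider’s medium, by less than in A20 cells. AAEL001495 differed by -1.91 and -2.71, beside -0.92 and -0.24 in Aag2 cells. AAEL015458 averaged 18.7 CPM with heme and 52.6 CPM without it in Aag2 cells in L-15 (log2 -1.49), and 481 CPM with heme and 285 CPM without it in Schneider’s medium (log2 0.76), so its difference from the A20 response was -7.88 and -10.2. All of these differences passed the threshold.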

How the data were processed

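RNA of A20 cells was sequenced by the authors, who aligned reads to AaegL5 with HISAT2 2.1.0, dropped reads of low mapping quality (SAMtools) and then took counts per transcript (bedtools 2.19.1). The deposited values are these whole-number counts without normalization, and whether strand was used is not given in the sources used here, so overlapping and antisense genes, and near-identical copies, cannot be told apart. Another identifier had the same 9 counts for 100 identifiers.

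The 9 A20 libraries were fitted together with edgeR 4.0.16 (filterByExpr, TMM, quasi-likelihood F test, Benjamini-Hochberg adjustment, threshold 0.0001) in R 4.3.3, and again under RLE, upper quartile and library size alone. The biological coefficient of variation was 0.240. The SE of a log2 fold change was taken from the F statistic. The interaction used joint fits of 18 libraries. The steps were tested on simulated data. Alternatives were the exact test, DESeq2 1.42.0, other filters, the 6 serum-free libraries, a replicate block and leaving out each library. No 2 of the 6 serum-free A20 libraries agreed within sampling noise, and the other libraries were not checked for this. p-values rest on the spread between replicates in all 3 A20 groups, the FBS libraries included, with the spread estimated across genes. In the joint fits they rest on that of all 18 libraries.

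Products come from the study's annotation, held here in part, and cover 791 identifiers, and positions are AaegL5. Sequences are the study's primers. Genes named by rule were the 12 largest rises and falls held under all 4 scalings with non-overlapping groups and at least 10 CPM, the 5 most abundant genes with heme, the extreme and most abundant members of each list, heme and iron genes and the RNA interference genes. Other list members were named after their values were seen. Members and lists were chosen with earlier results of these data known.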

Additional observations from a re-analysis of the deposited data

Results flagged for a closer look

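The heme response differed between A20 cells and Aag2 cells in L-15 in 3864 genes, 2182 of them with the higher response in A20 cells, and 4895 under library size alone. Against Aag2 cells in Schneider’s medium it differed in 3929 genes, 1824 of them higher in A20 cells, and in 4821 under library size alone, by edgeR’s quasi-likelihood test of the interaction. Under library size alone 729 and 681 genes were higher in A20 cells, so the direction of the differences depended on the scaling.

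AAEL021693 was singled out because its response ran in opposite directions in the lines, with log2 fold changes of 3.39 in A20 cells and -1.51 in Aag2 cells in L-15, a difference of 4.90 under TMM and 3.88 under library size alone. AAEL025975 did so against Aag2 cells in Schneider’s medium, with -6.33 in A20 cells and 2.82 in Aag2 cells, a difference of -9.16 under TMM and -9.97 under library size alone. Both are among the largest changes in A20 cells, which were chosen on the same libraries.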

How the results depend on the processing

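Under TMM 2318 genes were called, 1199 higher and 1119 lower with heme. Library size alone gave 420 higher and 2124 lower, and library size without the 10 most abundant genes 484 and 1963. The exact test called 5041 genes, 2305 higher and 2736 lower, and DESeq2 5320, 2673 higher and 2647 lower; both include all 1199 higher genes and 1119 and 1118 of the lower. The fit of the 6 serum-free libraries called 183, 147 higher and 36 lower, and an adjusted p of 0.05 gave 8174, 3680 higher and 4494 lower. RLE, upper quartile, both other filters and a 2-fold minimum stayed within 1.5 times of each main count. Under all 4 scalings, the exact test held 3471 genes, 966 higher and 2505 lower. Leaving out 1 library gave 411 to 4223 calls, 197 to 2048 higher and 214 to 2175 lower, and 233 to 2783 held genes, 106 to 755 higher and 126 to 2028 lower, with the highest numbers without replicate 1 in 10 μM heme.

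No sign was seen that replicate numbers pair the libraries. Same-numbered libraries had deviations correlated at -0.0177, 0.0236 and 0.0131, and differently numbered ones at -0.0398 to 0.0207. Not every library correlated best with its own number. So few libraries cannot show that there was no pairing. With the replicate block 541 genes were called, 295 higher and 246 lower.

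Over all lists, 52 members were higher and 46 lower under library size alone, and 39 to 116 were higher and 4 to 45 lower without 1 library. Of the 103 named genes, 1 turned: cathepsin L (AAEL002833) had a log2 fold change of 0.03 under TMM and of -0.67 under library size alone and -0.59 without the 10 most abundant genes, where it was called. Of the named genes, 11 calls were lost and 9 gained under library size alone, 48 were lost in the fit of the 6 serum-free libraries, and 20 to 45 were lost without 1 library other than replicate 1 in 10 μM heme. Causes were not tested. The share of named products limits the lists, and the search of promoter letters was not run, as no promoter table was used here. Where a group held under 10 reads, as for LRIM1, counting error adds to the error shown.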
